A study of Homo sapiens with 12 samples.

Results

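The 88 genes described here had less RNA after 8 h of TSZ in HT-29 cells and a level close to that of DMSO cells when Nec-1s was present as well. They were chosen from the deposited group means by 3 thresholds: a DMSO mean of at least 100 normalized reads, a TSZ mean of at most 0.4 times the DMSO mean, and a TSZ+Nec-1s mean of at least 0.8 times the DMSO mean. Genes whose symbol starts with ZNF were left out. Of 26485 genes, 8787 had a DMSO mean of at least 100, 246 of these had a TSZ mean of at most 0.4 times DMSO, and 93 of the 246 also passed the Nec-1s threshold, 5 of them ZNF genes. The other 153 stayed under 0.8 times DMSO with Nec-1s. Because the group means chose the genes, their TSZ, TSZ+Nec-1s and DMSO levels are given as a description, and tests on them are given only where the TNFα libraries, which the choice did not use, are set against another group. For other genes of the replication and cell cycle lists, calls in the remaining comparisons are given as counts beside the share over all genes.

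HT-29 is an established line of human colon adenocarcinoma cells. The 4 groups were TSZ+Nec-1s (TNFα at 10 ng/ml, SM-164 at 50 nM, zVAD at 20 μM and Nec-1s at 10 μM), TSZ (the same agents without Nec-1s), TNFα alone at 10 ng/ml, and DMSO, with 3 polyA RNA libraries per group and 12 in all. Whether the 3 libraries were grown as separate cultures is not given in the labels, and p-values therefore measure the spread between libraries, which may be technical. RNA came from cells in bulk, in which fewer cells of a kind and less RNA per cell cannot be told apart. Whether detached cells were collected along with attached ones is not given.

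Necroptosis is a lytic form of regulated cell death. TNFα assembles a receptor complex that holds the kinase RIPK1, and once a Smac mimetic such as SM-164 removes IAP proteins and zVAD blocks caspases, RIPK1 kinase activity leads through RIPK3 to MLKL, which permeabilizes the plasma membrane. Nec-1s inhibits RIPK1 kinase and thereby stops this route. Cycling tumor cells such as HT-29 express the genes of DNA replication in late G1 and S phase and those of spindle and kinetochore in G2 and mitosis, largely through the E2F and the MuvB-linked programs of transcription.

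Group means were resolved into whole reads per library, which are called a, b and c in each group, and a letter pairs nothing across groups. Libraries held an estimated 8871525 to 12726506 reads. Of 12 epithelial markers 9 had a mean of at least 10 in some group, with KRT8 the highest. So had 2 of 10 leukocyte markers and 3 of 10 fibroblast and endothelial markers. At 0 in every group were 0 epithelial, 5 leukocyte and 1 of the fibroblast and endothelial markers. The summed level of the 10 leukocyte markers was 254 in TSZ+Nec-1s, 136 in TSZ, 187 in TNFα and 91.2 in DMSO, and that of the 10 fibroblast and endothelial markers was 52.0, 351, 53.2 and 133 in the same groups. The part of these RNAs in the results was not tested.

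DMSO library b, TSZ library a and TNFα library a stood apart from the others of their group. For each of 11396 genes, the deviation of a library from the mean of its own group was taken. This deviation fell with the GC content of the transcript in these 3 libraries (Spearman's rho of -0.81, -0.75 and -0.61), whereas rho lay between -0.15 and 0.78 in the other 9. Deviations within a group cancel out for each gene, so the values of its 3 libraries are not independent of each other. The canonical transcripts of the 88 genes had a median GC content of 43.3%, against 48.4% over all genes tested. DMSO library b was the highest of the 3 DMSO libraries for 55 of the 88 genes and the lowest for 23. Without DMSO library b, 45 of the 88 genes still met all 3 thresholds. Of the 43 lost, 32 had a TSZ mean above 0.4 times DMSO, 10 a TSZ+Nec-1s mean under 0.8 times DMSO and 9 a DMSO mean under 100, and some failed more than 1 of these. The 10 were ARMC7, ASB13, BBS4, CDAN1, CTBP1-AS2, DTNBP1, HPDL, IQCC, KNOP1 and TAB1. The 32 were AGGF1, AP5M1, CCDC138, CCNE2, CDCA2, CENPC, CEP295, CLSPN, DBR1, DSCC1, ERCC6L, EXTL2, FAM111B, FAM173B, FAM217B, FAM83D, FASTKD3, GLT8D1, GPAM, HMMR, IFT80, KIF15, MFSD8, MSH6, NSL1, ORC5, PDE3B, PIGM, PTCD2, RAD54B, SGOL2 and WDR76.

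In TSZ the 88 genes stood at 23.0% (PIK3R1) to 39.9% (CLSPN) of their DMSO mean, with a median of 35.6%. With Nec-1s they stood at 80.1% (KNOP1) to 119% (CEP295), with a median of 90.7%, and 13 of the 88 were at or above DMSO. Under TNFα alone they stood at 41.8% (IFT80) to 116% (MMACHC), with a median of 89.8%. DMSO means ran from 102 normalized reads (RTN4IP1) to 2930 (STARD7), with a median of 268. Without DMSO library b the 88 genes stood at 70.8% (IQCC) to 233% (SGOL2) in TSZ+Nec-1s, with a median of 99.1%, at 28.2% (PIK3R1) to 76.1% (SGOL2) in TSZ, with a median of 37.4%, and at 74.2% (IFT80) to 126% (FASTKD3) in TNFα, with a median of 96.9%. All 3 TSZ libraries lay below all 9 other libraries for 82 of the 88 genes, a pattern held by 17.5% of all genes tested, and since the choice used TSZ and DMSO this count is a description. The exceptions were SGOL2, IFT80, CENPC, MFSD8, HMMR and CEP295.

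**Figure D1:**
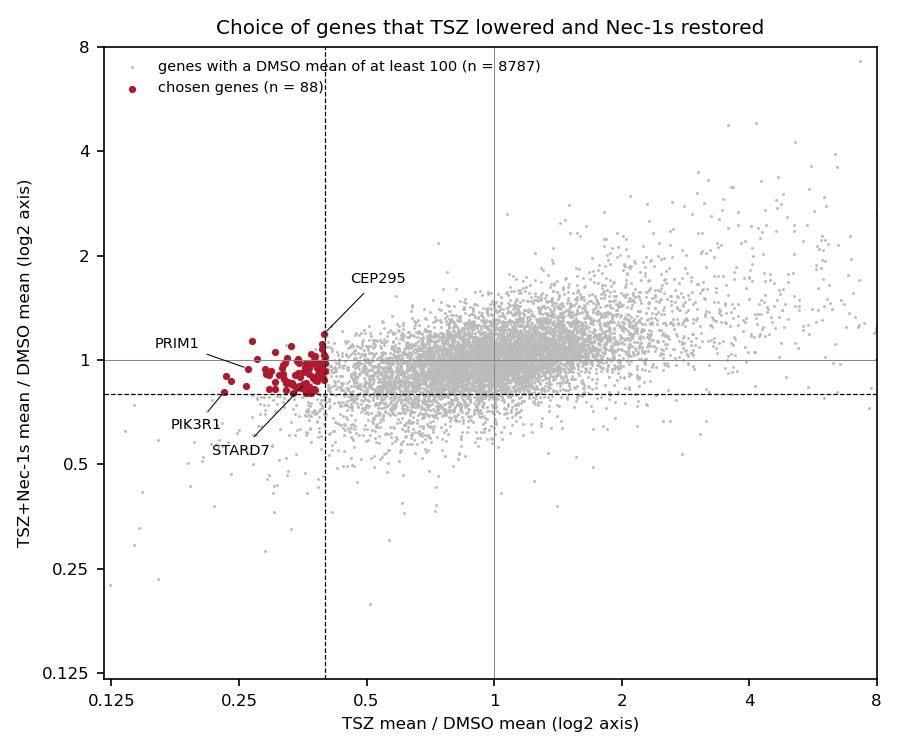
Ratio of the TSZ mean to the DMSO mean (x axis) against the ratio of the TSZ+Nec-1s mean to the DMSO mean (y axis), both on log2 axes, for genes with a DMSO mean of at least 100 (grey, n = 8787, those beyond the axes not drawn) and the 88 chosen genes (red). Dashed lines mark the thresholds of 0.4 and 0.8; the chosen genes fill the corner left of 0.4 and above 0.8, and many lie close to the 0.4 line.

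Just inside the TSZ threshold were CLSPN at 0.399 and MSH6 at 0.399 times DMSO, and just outside it C17orf80 at 0.401 and DGCR8 at 0.402. At the Nec-1s threshold KNOP1 (0.801) and IQCC (0.802) were inside, and TIMM21 (0.799) and AMER1 (0.797) outside. At the threshold on DMSO, RTN4IP1 (102) and PSMD5-AS1 (103) were inside, and ZC3H8 (98.8) and TUSC1 (93.5) outside. The set therefore has no gap at its edges.

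By known function, assigned after the genes were chosen, 8 of the 88 act in DNA replication and entry into S phase, 7 in DNA repair, 10 in mitosis and the centriole, 12 in signalling and ubiquitin adaptors, 16 in transcription, chromatin and RNA, 14 in mitochondria and metabolism and 11 in membranes, glycans, the cilium and traffic, and 10 were given no such role. Of 23 gene lists, 12 held at least 1 of the genes, and 46 of the 88 were on no list. Of the 151 tested genes on the list of DNA replication and repair 10 (6.62%) were in the set, against 0.754% of all genes tested.

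**Figure D2:**
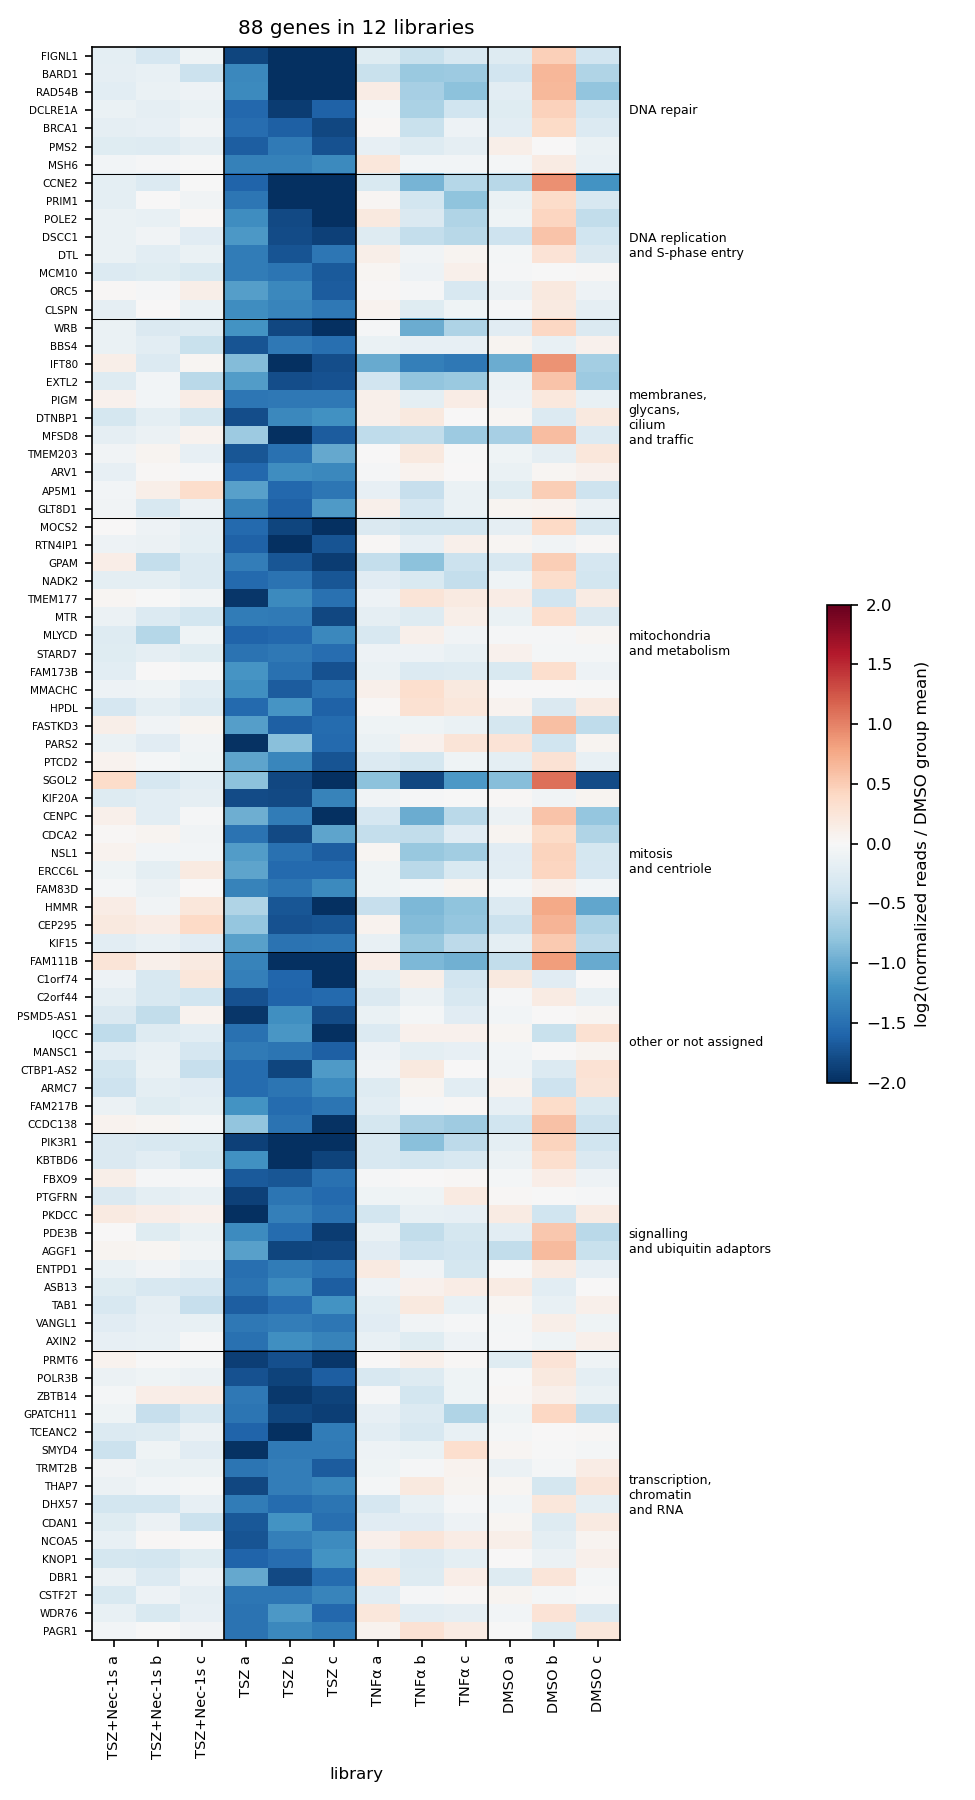
Normalized reads of the 88 genes (rows, grouped by role) in the 12 libraries (columns: TSZ+Nec-1s, TSZ, TNFα, DMSO, each with libraries a, b and c), as log2 of the ratio to the gene's DMSO mean, with colors saturating at -2 and 2. The 3 TSZ columns are blue throughout, and the DMSO b column is red for the AT-rich genes such as SGOL2, IFT80 and HMMR.

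Among replication genes, PRIM1, the catalytic subunit of the primase that starts each DNA strand, was at 26.3% of DMSO in TSZ. It had 218, 254 and 239 normalized reads in TSZ+Nec-1s libraries, 92.1, 45.1 and 60.7 in TSZ libraries, 259, 194 and 144 in TNFα libraries, and 230, 323 and 201 in DMSO libraries. The TSZ libraries lay below all others, and the other 3 groups overlapped. POLE2, a subunit of the leading-strand polymerase, had 151, 149 and 168 in TSZ+Nec-1s, 69.9, 47.4 and 39.3 in TSZ, 189, 136 and 109 in TNFα, and 156, 222 and 118 in DMSO libraries. MCM10, which helps to activate the replicative helicase, had 573, 585 and 561 in TSZ+Nec-1s, 262, 251 and 217 in TSZ, 711, 648 and 739 in TNFα, and 682, 691 and 701 in DMSO libraries. Its DMSO libraries differed little (SD 9.37, n = 3), and here TSZ+Nec-1s lay below both DMSO and TNFα in every library, at 82.9% of DMSO. CLSPN, the claspin that links stalled forks to the checkpoint kinase CHK1, averaged 713 ± 48.0 in TSZ+Nec-1s, 305 ± 19.8 in TSZ, 724 ± 78.9 in TNFα and 765 ± 97.7 in DMSO (SD, n = 3 each). ORC5, of the origin recognition complex, was at 39.7% of DMSO in TSZ, DTL, the adaptor through which a CUL4 ligase removes the licensing factor CDT1, at 34.8%, and DSCC1, of a clamp loader used in sister chromatid cohesion, at 33.9%. CCNE2, cyclin E2 that drives CDK2 at the start of S phase, had the lowest ratio of the group, 23.3%. Its 3 DMSO libraries had 111, 306 and 70.5 reads, and without DMSO library b it stood at 161% in TSZ+Nec-1s and 41.7% in TSZ, over the threshold, as did CLSPN (42.8%), ORC5 (42.8%) and DSCC1 (44.7%).

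Promoter sequence was looked at for motifs of cell cycle transcription. RefSeq (GRCh38.p14) windows of 250 bases before to 50 after the start site were matched for 72 of the 88 genes. The letters TTTCGCG or their complement, a core of E2F sites, were in 2 of 72 windows (2.78%), against 2.47% of the 9283 windows of tested genes and 1.35% of all 27305 windows. The variant TTTGGCG was in 5 of 72 (6.94%), against 3.12% of tested genes and 1.92% of all windows. TTTGAA, the core of the CHR element of mitotic genes, was in 12.5%, against 9.42% and 15.4%. TGACGT, the core of cAMP response elements, was in 19.4%, against 12.1% and 8.32%. A TATA box (TATAAA) was in 1 of 72, or 1.39%, against 5.45% and 11.95%. GC boxes (GGGCGG), at 72.2%, and ETS cores (CCGGAA), at 34.7%, were about as frequent as in tested genes, at 71.0% and 31.7%. Both strands were searched, with no test, and a match is a run of letters and not a bound site. In the 250 bases before the start, 5 of the 72 held an E2F core (6.94%), against 4.56% of tested genes. By role, it was in 1 of 6 replication, 1 of 8 mitotic and 0 of 6 DNA repair windows. It was also in 2 of 9 windows of signalling and ubiquitin adaptors and 1 of 13 of mitochondria and metabolism. DTL and KIF15, the replication and the mitotic gene among these 5, are shown, upstream bases only, 5′ to 3′ on the gene's strand (plus for both), with E2F cores and TGACGT on either strand in capitals. DTL lies at chr1:212035498-212035747 and KIF15 at chr3:44761544-44761793.
DTL: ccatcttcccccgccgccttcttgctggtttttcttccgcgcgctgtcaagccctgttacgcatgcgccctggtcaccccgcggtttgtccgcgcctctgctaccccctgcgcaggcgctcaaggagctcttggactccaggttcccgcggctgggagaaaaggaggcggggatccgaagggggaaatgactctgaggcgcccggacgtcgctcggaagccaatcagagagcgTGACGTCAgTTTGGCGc
KIF15: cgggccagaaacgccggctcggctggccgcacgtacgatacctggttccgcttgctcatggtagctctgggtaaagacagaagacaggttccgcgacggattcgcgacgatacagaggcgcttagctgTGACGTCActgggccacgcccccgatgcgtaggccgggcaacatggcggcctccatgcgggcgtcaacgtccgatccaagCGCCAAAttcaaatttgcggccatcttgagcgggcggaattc
The E2F core begins 8 bases before the start site in DTL and 42 before it in KIF15, and both windows hold TGACGT on both strands, overlapping as a palindrome.

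Of the DNA repair genes, FIGNL1 and BARD1 had the lowest TSZ ratios of the set after PIK3R1 and CCNE2. FIGNL1, an AAA ATPase of homologous recombination, was at 23.9% of DMSO in TSZ, with 430, 392 and 466 reads in TSZ+Nec-1s, 139, 113 and 102 in TSZ, 419, 361 and 396 in TNFα, and 413, 685 and 379 in DMSO libraries. BARD1, the obligate partner of BRCA1, was at 25.9%, with 168, 172 and 141 reads in TSZ+Nec-1s, 77.7, 36.1 and 34.5 in TSZ, 140, 114 and 115 in TNFα, and 146, 301 and 125 in DMSO libraries. BRCA1 itself, at 31.8%, had 425, 426 and 458 in TSZ+Nec-1s, 166, 155 and 136 in TSZ, 486, 352 and 445 in TNFα, and 415, 624 and 398 in DMSO libraries. Both partners of this ubiquitin ligase were lower in every TSZ library than in any other library. The same held for 82 of the 88 genes, which were chosen for a low TSZ level. Without DMSO library b the TSZ levels were 29.8% for FIGNL1, 36.5% for BARD1 and 37.5% for BRCA1, still inside the threshold. RAD54B, a DNA translocase of recombination, was at 29.5% of DMSO in TSZ and at 40.9% without that library. DCLRE1A, a nuclease of crosslink repair, was at 31.1% in TSZ and PMS2, of mismatch repair, at 33.0%. MSH6, of mismatch recognition, was the best covered of the repair genes and averaged 1332 ± 17.9 in TSZ+Nec-1s, 542 ± 15.6 in TSZ, 1403 ± 166 in TNFα and 1358 ± 156 in DMSO (SD, n = 3 each). In TSZ it stood at 42.5% without DMSO library b.

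The wider list of replication and repair genes was set beside these. Of its 141 tested genes outside the set, limma called 96 lower and 3 higher in TSZ than in DMSO, where 24.3% of all genes tested were lower and 25.7% higher. It called 84 of the 141 higher and 0 lower in TSZ+Nec-1s than in TSZ, where 19.9% of all genes were higher and 22.3% lower. On the log2 scale the medians of these 141 genes were -0.67 (TSZ over DMSO) and 0.56 (TSZ+Nec-1s over TSZ). In TSZ+Nec-1s against DMSO 17 of the 141 were lower and 0 higher (5.78% and 7.11% of all genes), and under TNFα alone 1 was lower and 0 higher. Of 93 tested cell cycle and mitosis genes outside the set, 50 were lower and 12 higher in TSZ than in DMSO. Scaled by total reads, 1611 of 11668 genes were higher and 5690 lower in TSZ than in DMSO, in place of 2997 and 2832 of 11664. These comparisons share the TSZ and DMSO libraries that the choice of the 88 genes used.

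Among mitotic genes, KIF20A, a kinesin of the central spindle and cytokinesis, was at 32.5% of DMSO in TSZ. It had 670, 690 and 706 reads in TSZ+Nec-1s, 233, 230 and 318 in TSZ, 759, 787 and 794 in TNFα, and 813, 760 and 829 in DMSO libraries. FAM83D, which recruits casein kinase 1 to the spindle, averaged 1094 ± 48.6 in TSZ+Nec-1s, 440 ± 28.2 in TSZ, 1109 ± 62.2 in TNFα and 1129 ± 66.9 in DMSO (SD, n = 3 each). SGOL2, HMMR, CEP295 and CENPC were less even across DMSO libraries. SGOL2, a shugoshin of centromeric cohesion, had 220, 135 and 147 reads in TSZ+Nec-1s, 96.5, 48.5 and 19.0 in TSZ, 96.2, 48.1 and 77.1 in TNFα, and 94.5, 368 and 49.2 in DMSO libraries. Its DMSO mean came mostly from library b, without which TSZ+Nec-1s stood at 233%, TSZ at 76.1% and TNFα at 103% of DMSO, against 43.3% in TNFα with it. HMMR, a spindle and hyaluronan-binding protein, and CEP295, a protein of the centriole, stood at 59.7% and 56.9% in TSZ without that library, against 39.2% and 39.7% with it. In TSZ+Nec-1s HMMR stood at 164% without it and 108% with it. CENPC, the inner kinetochore protein that binds the centromeric nucleosome, stood at 47.6% without it. KIF15, a spindle kinesin, CDCA2, which brings protein phosphatase 1 to chromatin, NSL1, of the MIS12 complex, and ERCC6L, a translocase on anaphase DNA bridges, were at 37.5% to 39.8% of DMSO in TSZ. Without DMSO library b these stood over the threshold, KIF15 at 50.7%, CDCA2 at 44.1%, NSL1 at 46.2% and ERCC6L at 46.7%, as did FAM83D at 40.4%.

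**Figure D3:**
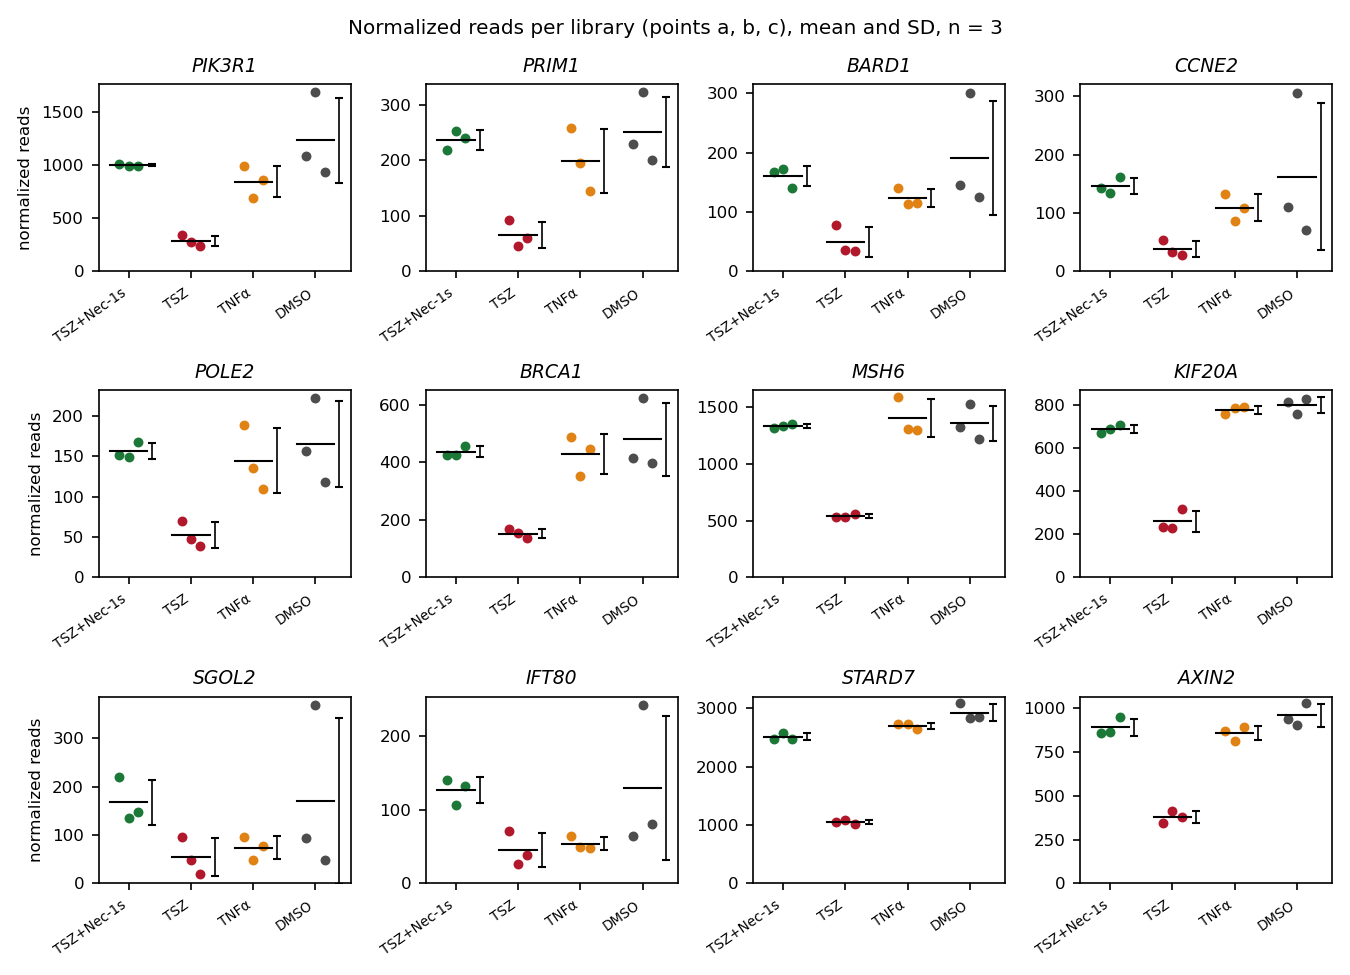
Normalized reads in each library (points a, b and c from left to right), with the mean (horizontal line) and SD (error bar, n = 3), for 12 of the 88 genes in TSZ+Nec-1s, TSZ, TNFα and DMSO; the y axes start at 0. In MSH6, KIF20A, STARD7 and AXIN2 the TSZ points lie far under tightly grouped points of the other groups, whereas in SGOL2 and IFT80 only DMSO library b and the TSZ+Nec-1s libraries are high.

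PIK3R1, the p85α regulatory subunit of PI3-kinase (chromosome 5, 68215740 to 68301821, plus strand, hg38), had the lowest TSZ ratio of the set. It had 1011, 993 and 997 normalized reads in TSZ+Nec-1s, 339, 273 and 243 in TSZ, 989, 694 and 860 in TNFα, and 1085, 1690 and 936 in DMSO libraries. Without DMSO library b it stood at 99.0% of DMSO in TSZ+Nec-1s and 28.2% in TSZ. AXIN2, a scaffold of the β-catenin destruction complex and itself a WNT target, was at 39.3%, with 859, 860 and 946 reads in TSZ+Nec-1s, 342, 411 and 377 in TSZ, 867, 813 and 894 in TNFα, and 939, 902 and 1030 in DMSO libraries. VANGL1, of the planar cell polarity branch of WNT signalling, was at 37.4%. TAB1, an activator of the kinase TAK1 downstream of the TNF receptor, was on the necroptosis and death receptor list. Of the 23 tested genes on that list, 1 (4.35%) was in the set, against 0.754% of all genes tested. TAB1 had 282, 311 and 258 reads in TSZ+Nec-1s, 112, 123 and 155 in TSZ, 309, 402 and 318 in TNFα, and 365, 317 and 377 in DMSO libraries. PKDCC, a tyrosine kinase of the secretory pathway, was at 33.2% in TSZ and 110% in TSZ+Nec-1s. The substrate adaptors KBTBD6 (29.4%), FBXO9 (32.5%) and ASB13 (36.5%), which serve cullin ubiquitin ligases, belonged to the set too, as did PDE3B, a phosphodiesterase of cAMP, at 34.4%.

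In transcription and RNA, PRMT6, which places asymmetric dimethylarginine on histone H3, was at 27.6% of DMSO in TSZ. It had 459, 436 and 429 reads in TSZ+Nec-1s, 119, 130 and 114 in TSZ, 439, 469 and 444 in TNFα, and 372, 530 and 415 in DMSO libraries. POLR3B, the second largest subunit of RNA polymerase III, was at 29.8% and the zinc finger repressor ZBTB14 at 30.3%. NCOA5, a coregulator of nuclear receptors, averaged 922 ± 60.6 in TSZ+Nec-1s, 349 ± 56.0 in TSZ, 1060 ± 50.4 in TNFα and 946 ± 107 in DMSO (SD, n = 3 each). Enzymes that act on RNA were the tRNA methyltransferase TRMT2B (35.4%), the helicase DHX57 (36.2%), the lariat debranching enzyme DBR1 (37.5%), the polyadenylation factor CSTF2T (37.9%) and PARS2, the mitochondrial prolyl-tRNA synthetase (38.3%). In this group the 16 genes ranged from 80.1% to 106% of DMSO in TSZ+Nec-1s and from 79.3% to 113% in TNFα.

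Of the metabolic genes, STARD7, which carries phosphatidylcholine to mitochondria, was the most abundant gene of the set. STARD7 had 2484, 2587 and 2480 reads in TSZ+Nec-1s, 1051, 1088 and 1020 in TSZ, 2729, 2735 and 2647 in TNFα, and 3101, 2842 and 2846 in DMSO libraries. MOCS2, of molybdenum cofactor synthesis, was at 28.8% and RTN4IP1, a mitochondrial oxidoreductase, at 29.0%. The pair MTR, methionine synthase, and MMACHC, which processes the vitamin B12 that methionine synthase uses, stood at 34.6% and 36.6% of DMSO in TSZ. GPAM, which starts triglyceride synthesis (31.9%), NADK2, the mitochondrial NAD kinase (33.4%), and MLYCD, malonyl-CoA decarboxylase (35.9%), completed the better known enzymes. FASTKD3 (37.9%) and PTCD2 (39.5%) act on mitochondrial RNA.

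Cilium and membrane genes included IFT80, of intraflagellar transport, BBS4, of the BBSome (34.1%), and WRB, which inserts tail-anchored proteins into the endoplasmic reticulum (32.4%). IFT80 had 141, 107 and 133 reads in TSZ+Nec-1s, 71.0, 26.0 and 38.1 in TSZ, 64.5, 50.0 and 48.0 in TNFα, and 64.8, 243 and 81.2 in DMSO libraries. TSZ library a lay between DMSO libraries a and c, and without DMSO library b IFT80 stood at 174% of DMSO in TSZ+Nec-1s, 61.6% in TSZ and 74.2% in TNFα, against 97.8%, 34.7% and 41.8% with it. AP5M1, of an endosomal adaptor complex, was at 39.2% in TSZ and 111% in TSZ+Nec-1s. FAM111B, a serine protease, was at 26.8% in TSZ and 113% in TSZ+Nec-1s, and without DMSO library b at 44.4% in TSZ and 187% in TSZ+Nec-1s. The noncoding PSMD5-AS1 (32.5%) and CTBP1-AS2 (35.95%) were counted without strand, so reads of the gene on the opposite strand cannot be told apart from theirs.

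A further 21 genes had 30.5% (GPATCH11) to 39.2% (GLT8D1) of DMSO in TSZ and 81.7% (DTNBP1) to 104% (PIGM) in TSZ+Nec-1s. They were GPATCH11, TCEANC2, SMYD4, THAP7, CDAN1 and PAGR1 of transcription, chromatin and RNA, PTGFRN, AGGF1 and ENTPD1 of signalling, TMEM177 and FAM173B of mitochondria, EXTL2, PIGM, DTNBP1, TMEM203, ARV1 and GLT8D1 of membranes, glycans and traffic, and C1orf74, C2orf44, MANSC1 and ARMC7, which were given no role. The last 4 were HPDL of mitochondria (36.8% in TSZ), WDR76 of transcription, chromatin and RNA (38.2%), and FAM217B (38.3%) and CCDC138 (39.8%), which were given no role. ENTPD1 encodes CD39, which hydrolyzes extracellular ATP, and PIGM adds the first mannose of GPI anchors.

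TNFα alone is 1 component of TSZ, and its libraries give the level of these genes under the cytokine by itself. Against DMSO, limma (12 libraries in 1 fit, Benjamini-Hochberg adjusted p under 0.05 over 11664 genes) called 0 of the 88 genes higher and 0 lower. Over all genes tested it called 3.07% higher and 1.08% lower, and over those with a DMSO mean of at least 100, as all 88 have, 2.71% and 1.14%. Of the 88, 3, namely PIK3R1, GPAM and IFT80, had an unadjusted p under 0.05 (3.41%, against 15.1% of all genes tested). The median log2 fold change of the 88 was -0.15, with 68 below 0 and 20 above, against a median of -0.00 over all genes. The DMSO libraries also entered the choice, so this value is not independent of it, and without DMSO library b the median was -0.05. The 3 TNFα libraries lay below the 3 DMSO libraries for 9 of the 88 genes (7.23% of all genes) and above them for 1, MMACHC (11.5%). The SD of the 3 DMSO libraries had a median of 19.7% of the mean across the 88 genes and reached 101% in SGOL2. With such spread, the absence of calls does not show that TNFα left these genes unchanged.

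With all libraries PIK3R1 had a log2 fold change of -0.51 (SE 0.19, limma adjusted p = 0.207), and its TNFα and DMSO libraries overlapped. PKDCC had 361, 417 and 415 reads in TNFα and 519, 353 and 518 in DMSO libraries, with a log2 fold change of -0.21 (SE 0.16, limma adjusted p = 0.626). With the trend of each library with GC content taken out, limma called 3 of the 88 lower (5.51% of all genes) and 0 higher (8.06%): PIK3R1 at -0.37 (adjusted p = 0.0047), PKDCC at -0.31 (adjusted p = 0.0199) and IFT80 at -0.69 (adjusted p = 0.0422). Without the 3 libraries that follow GC content, PIK3R1 at -0.39 (limma adjusted p = 0.0067) and PKDCC at -0.32 (limma adjusted p = 0.0347) were called lower and 0 higher, where 4.06% and 7.06% of all genes were. This last alternative was added after the data were seen. Because the DMSO libraries entered the choice, the calls under both alternatives are not independent of it. Under both, the share of the 88 genes called lower was below that of all genes.

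Set against TNFα in place of DMSO, TSZ was lower for 81 of the 88 genes in limma, where 21.7% of all genes tested (24% of those with a DMSO mean of at least 100) were lower, with a median log2 fold change of -1.38. The 7 not called were SGOL2, IFT80, CENPC, MFSD8, HMMR, CEP295 and CCDC138. Without the 3 libraries that follow GC content 86 of the 88 were lower (25.8% of all genes), and with libraries scaled by total reads 85 (42.5% of all genes, with 12.5% higher). The TNFα means were at least 1.5 times the TSZ means for 86 of the 88 genes and ran from 1.20 times (IFT80) to 3.73 times (PRMT6). The TSZ libraries were used in the choice, so this count describes the set on a new comparator and is no independent test of the TSZ level.

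TSZ+Nec-1s against TNFα compared the complete cocktail with its kinase inhibitor to the cytokine alone. With all libraries limma called 0 of the 88 higher and 0 lower (1.07% and 0.24% of all genes), with 8 at an unadjusted p under 0.05 (9.09%, against 17.9% of all genes), a median log2 fold change of -0.00, and 44 genes on either side of 0. Without the 3 libraries that follow GC content it called 27 higher (22.1% of all genes) and 10 lower (19.1%), so the result with all libraries does not show that the groups were alike. The TSZ+Nec-1s libraries were used in the choice, and these counts describe the set and are no independent test. The 27 higher genes, among them CCNE2, BARD1, PRIM1, PIK3R1, HMMR and KIF15, had a median GC content of 39.4%, and the 10 lower ones, among them MCM10, TAB1, HPDL, NCOA5 and MMACHC, one of 54.9%. With the GC trend removed instead, 1 gene was higher, PKDCC, and 4 lower, DTL, MCM10, WDR76 and FAM217B (3.55% and 1.47% of all genes). MCM10 was lower and PKDCC higher in TSZ+Nec-1s under both alternatives.

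GC content also ordered the 88 genes among themselves. The 23 genes with a GC content under 40% had a median TNFα level of 76.7% of DMSO, the 44 genes between 40% and 50% one of 90.1%, and the 21 genes at 50% or more one of 103%. In TSZ+Nec-1s the medians ran the other way, at 94.9%, 88.8% and 86.5%. In TSZ they were 32.1%, 35.4% and 36.6%. Across the 88 genes, GC content and the log2 fold change of TNFα over DMSO had a Pearson's r of 0.62 and a Spearman's rho of 0.67, against 0.25 and 0.37 across all genes. For TSZ+Nec-1s over TNFα r was -0.65 and rho -0.76, against -0.54 and -0.63 across all genes. For TSZ over DMSO they were 0.11 and 0.00. The choice used the DMSO, TSZ and TSZ+Nec-1s libraries, so the values for the 88 genes are not independent of it. These values are descriptions across genes of the same libraries. The part of library composition in them, DMSO library b included, was not tested.

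**Figure D4:**
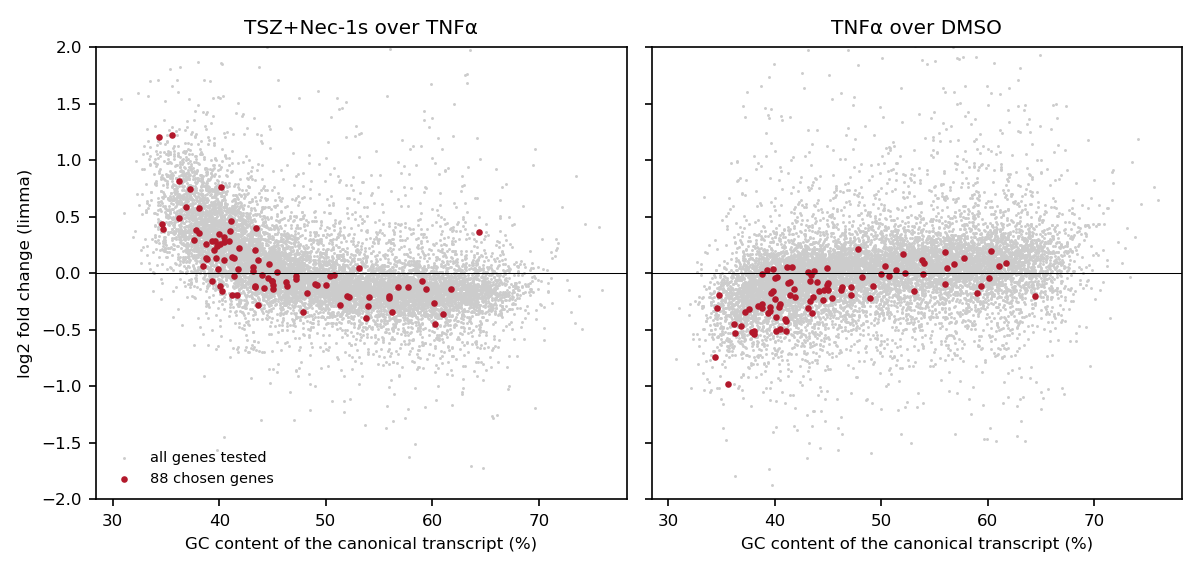
Log2 fold change in limma (y axis, cropped at -2 and 2) against the GC content of the canonical transcript in percent (x axis) for TSZ+Nec-1s over TNFα (left) and TNFα over DMSO (right), with all genes tested in grey and the 88 genes in red. The red points descend from left to right for TSZ+Nec-1s over TNFα (rho -0.76) and ascend for TNFα over DMSO (rho 0.67), along the grey cloud.

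The 88 genes had a median spliced length of 3966 bases, against 3266 bases over all genes tested, a median of 9 exons, as had all genes, and a median span of 33729 bases against 31536 bases. The 153 genes that TSZ lowered as far but Nec-1s did not restore had a median GC content of 50.3%, above that of the 88. Of the 88 genes, 86 were protein coding, and 16 (18.2%) lay on chromosome 1, 10 (11.4%) on chromosome 2 and 9 (10.2%) on chromosome 5, with no test. Of the 8711 placed genes with a DMSO mean of at least 100, 10.3%, 6.61% and 4.35% lay on these chromosomes.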

How the data were processed

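RNA-seq of 12 HT-29 libraries, 3 per group, was available as 6 tables of the authors' comparisons. Per its methods, the study aligned reads with STAR 2.3.0e (build hg38), took counts per gene with HTSeq 0.5.4e, not stranded, and the authors scaled these counts with DESeq. The signal used here is the deposited mean of scaled counts per group, a sum of 3 whole counts divided by size factors. Fold, log2 and p-value columns hold the authors' own comparisons and were not used. The groups were taken from the labels.

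The whole reads per library were solved from these means (15582 to 15831 genes per group, all 88 members in the 12 libraries), and the search was tested on simulated data. The design was fitted with limma 3.58.1 (R 4.3.3), log2 values with precision weights, for genes with a mean of at least 10, threshold 0.05. The fit was tested on simulated data with the same dispersion for every gene and no GC trend, so it does not cover the uneven libraries found here. For TNFα against DMSO it called 48% of the simulated 1.5-fold changes and 98% of the 2-fold changes. Symbols were matched to GENCODE v44 for GC content and position (6 of the 88 under another symbol). Python 3.11.15 with numpy 2.4.6, pandas 2.3.3 and matplotlib 3.10.9 was used. Members and lists were chosen with earlier results of these data known. Genes were named by a rule (the 12 lowest TSZ ratios, the 8 highest DMSO means, the 4 highest TSZ+Nec-1s ratios, genes called between TNFα and DMSO, genes on lists, and neighbors of the thresholds), and others were named after their values were seen. Alternatives were another low filter, total-read scaling, GC trend removal in 20 bins, limma-trend, fewer groups, leaving out libraries and other thresholds.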

Additional observations from a re-analysis of the deposited data

How the results depend on the processing

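No paired analysis was possible because the recovered libraries carry no replicate number. The set of genes depends on its thresholds and on scaling. A TSZ threshold of 0.3 gave 12 genes and one of 0.5 gave 294, a Nec-1s threshold of 0.7 gave 144 and one of 0.9 gave 47, and a DMSO mean of at least 200 gave 58. With group means scaled to equal totals 308 genes passed, 68 of them among the 88. In limma with libraries scaled by total reads, the median log2 fold change of TSZ over DMSO across all genes was -0.43, in place of -0.02. With the GC trend removed 86 passed, 67 shared. Leaving out 1 library gave 67 (without DMSO library b, 45 shared) to 138 genes (without TSZ library a, 81 shared), and without the 3 libraries that follow GC content 72 passed, 53 shared.

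For TNFα against DMSO, 0 genes were called in either direction under each alternative listed in the methods but GC trend removal, with 3 lower, and 2 were lower without the 3 libraries that follow GC content. TSZ against TNFα gave 74 to 86 lower and 0 higher when 1 library was left out. TSZ+Nec-1s against TNFα gave 0 to 2 higher and 0 to 1 lower when 1 library was left out (2 and 1 without DMSO library b), 1 higher and 4 lower with the GC trend removed, and 27 higher and 10 lower without the 3 libraries that follow GC content. Among named genes, 5 alternative values of TNFα over DMSO, for IFT80, PIK3R1 and PKDCC, passed the threshold that the reported value did not. Depth limits the lowest genes: the lowest member had 16 reads in 1 TSZ library.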
